A study of Rattus norvegicus with 35 samples.

Results

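The genes described here are those by which rat cells display peptides to T cells: the RT1 genes, which form the major histocompatibility complex of the rat, and genes that serve them. They were chosen by name as the protein coding rows of the expression table whose symbol starts with RT1, plus B2m, Cd74, Ciita, Nlrc5, Tap2, Tapbp, Tapbpl, Erap1, Calr, Pdia3, Canx and Ctss. This gave 47 of the 32545 rows. Of these, 36 reached 1 FPKM (fragments scaled to gene length and library size) in at least 5 libraries and are among the 14264 genes tested. By symbol, 15 of the 24 class I chains passed and 8 of the 10 class II chains. All 7 rows of class I machinery passed, as did the 3 genes of class II machinery and the 3 chaperones of the endoplasmic reticulum (ER). The messenger RNA came from the kidney cortex of male and female rats of genotype WT, the strain not being named, in a study of potassium intake and salt-sensitive hypertension. All diets held 4% NaCl. They were potassium deficient (DK), normal at 0.36% K (NK) or high at 1.41% K (HK), so no group was on a low-salt diet. Diets started soon after a telemeter for blood pressure was implanted at 8 weeks of age, and the cortex of 1 kidney was taken after 5 weeks. There were 35 libraries, 6 in each group of sex and diet except female HK with 5.

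Class I molecules sit on nearly all cells. Each pairs a heavy chain with beta-2-microglobulin (B2m) and carries a peptide that the proteasome cut in the cytosol, that the Tap1 and Tap2 pump moved into the ER, and that tapasin (Tapbp) and its relative Tapbpl help to load after trimming by Erap1. Class II molecules pair an alpha with a beta chain, are made mainly by dendritic cells, macrophages and B cells, and are escorted by the invariant chain Cd74, which cathepsin S (Ctss) cuts in endosomes; DM exchanges the last fragment for a peptide and DO restrains DM. Ciita is the coactivator that switches class II genes on, and Nlrc5 is its counterpart for class I. In the healthy kidney the class II genes are mostly active in resident myeloid cells, and injured tubule cells can also make them.

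Reads in genes came to between 13.99 M and 28.66 M per library, with a median of 14.98 M, and all sexes matched the labels (Eif2s3y, a Y-linked gene, was at least 31.3 FPKM in each male library and at most 0.113 in each female one). Tubule markers were high in all groups, with 6 proximal tubule genes summing to 2357 to 3666 FPKM in female NK and 2032 to 3185 in female DK. By the calls defined below, 3 of the 6 were higher and 2 lower in female DK than in NK. Beside them 19.7% and 19.5% of all tested genes were so called. The largest log2 differences each way were those of Cubn (0.60) and Lrp2 (-1.11). By the sample numbers in the labels, 4 female NK libraries and 5 of male DK belong to a series in the 200s and all others to one in the 300s, with no word on what this marks. The labels do not state that libraries of a group came from separate animals beyond their names, so each p-value refers to the spread among these libraries only. Female NK replicate 2 and female HK replicate 1 stood apart from their groups in several of the genes below. A difference is given as log2, the difference of mean log2(FPKM + 0.5), with its standard error (SE). A gene was called at an adjusted p under 0.05 (limma, Benjamini-Hochberg over the 14264 genes), and "rose" and "fell" are used of called genes only.

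Levels differed widely among the 36. Averaged over the 35 libraries, Cd74 stood at 901 FPKM, B2m at 575, Calr at 377 and RT1-Da at 144. RT1-Da, the DR-type alpha chain, held 51.4% of the summed FPKM of the class II chains, and the DQ-type chains RT1-Ba and RT1-Bb held 20.1% and 19.0%. Among class I chains, RT1-CE16 held 36.7% and RT1-S3 held 23.4%. Just inside the filter was RT1-CE5, at 1 FPKM or more in 9 libraries, and just outside it RT1-CE2, in 3 libraries. The others that did not pass were RT1-M2, RT1-M5, RT1-M6-1, RT1-N2, RT1-S2, RT1-T24-1, RT1-CE3, RT1-CE6, RT1-Ha and RT1-Db2, none above 1.26 FPKM in any library, and RT1-N2 had no read. All 34 RT1 rows lie on chromosome 20, with starts from 154074 to 5374985 in the coordinates of the deposited table, for which the sources used here give no build. Several class I rows overlap on the same strand there: RT1-A1 with RT1-A2, RT1-A3 with RT1-CE16, RT1-M6-1 with RT1-M6-2, RT1-T24-1 with RT1-T24-2, and RT1-CE4 with RT1-CE2, RT1-CE3, RT1-CE5, RT1-CE6 and RT1-CE7. Reads of such rows, and of near-identical class I chains in general, can be split between rows by counting, so their separate values are uncertain.

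The promoter letters that class II transcription is known to read, an X box bound by the RFX complex and a Y box bound by NF-Y, were looked up in the RefSeq promoters of assembly GRCr8, windows of 300 bases around each gene's start. Of the 35 member symbols, 29 had an entry; Ciita, Nlrc5, Pdia3, Erap1, RT1-CE7 and RT1-DMb had none. The X box was searched as CC, any base, AG, any 2 bases, AC, any 2 bases and ATG, and the Y box as ATTGG, on both strands. The X box was found in 0.245% of all 33469 promoters (82 of them) and in 5 of the members, RT1-Da, RT1-Bb, RT1-DOb, RT1-CE10 and RT1-N3; the Y box was in 37.5% of all promoters and in 25 members. In 4 of these 5 a Y box starts 34 to 37 bases after the start of the X box, a spacing read off these hits. With both boxes read on the gene's own strand, these are the only 4 of all 33469 promoters (0.012%) with that arrangement. Pairs on the opposite strand were not counted. They are shown 5′ to 3′ because they carry the full pair, with the X box and the Y box in capitals. The windows are chr20:4515323-4515376 (+) for RT1-Da, chr20:4604169-4604221 (-) for RT1-Bb, chr20:4627596-4627646 (-) for RT1-DOb and chr20:3385069-3385122 (-) for RT1-CE10, a class I row.
RT1-Da: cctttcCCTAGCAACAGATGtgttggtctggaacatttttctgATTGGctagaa
RT1-Bb: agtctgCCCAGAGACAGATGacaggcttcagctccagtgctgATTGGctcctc
RT1-DOb: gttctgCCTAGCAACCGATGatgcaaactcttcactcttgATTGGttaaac
RT1-CE10: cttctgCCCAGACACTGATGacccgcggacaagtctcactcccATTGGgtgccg
In RT1-Db1 and RT1-CE5, 8 of the 9 fixed letters of the X box stand at that distance before a Y box. The count is 7 of 9 in RT1-M3-1, RT1-A1, RT1-A2 and RT1-DMa, and 6 of 9 in B2m and RT1-DOa. It is 4 of 9 in RT1-Ba, RT1-N3, RT1-T24-3, RT1-T24-2 and Calr, and 3 of 9 in RT1-A3. Each count is the best over the spacings and Y boxes tried, and no share over all promoters was computed. RT1-Da, RT1-Bb and RT1-DOb fell in female DK against NK and RT1-CE10 was not called.

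An interferon response element, searched as GAAA, any 2 bases and GAAA on both strands, was in 3.92% of all promoters and in 6 members: Tapbp, Ctss, Tap2, B2m, RT1-S3 and RT1-N3. Of these, 4 are shown because Tapbp and Ctss rose in female DK while RT1-S3 fell and B2m was not called. The element is in capitals, and on RT1-S3 it reads on the opposite strand; in Tapbp 2 overlapping copies make 1 longer run. The windows are chr20:4967878-4967913 (-) for Tapbp, chr2:185775350-185775379 (+) for Ctss, chr20:2675406-2675435 (+) for RT1-S3 and chr3:129549170-129549199 (+) for B2m.
Tapbp: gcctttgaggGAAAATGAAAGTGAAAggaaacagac
Ctss: gtctttaaatGAAACCGAAAtgaaagttca
RT1-S3: ctcctgctgcTTTCTCTTTCataaagacac
B2m: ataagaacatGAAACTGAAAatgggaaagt
A letter match is a description of the sequence and shows no binding in these samples.

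The comparison with the most calls was potassium deficiency in females. Against female NK, 16 of the 36 genes fell and 3 rose in female DK, where 19.5% of all tested genes fell and 19.7% rose. With library sums, which move the median of all genes to -0.17 here, the split was 20 lower and 2 higher. RT1-A2 was then no longer called, and RT1-CE7, Cd74, Canx and Pdia3 were called lower. With FPKM as deposited, the median difference over the 36 was -0.21 against -0.01 over all tested genes. Class II chains fell in 6 of 8 cases and class I chains in 7 of 15, with 1 class I chain higher. Both transcriptional coactivators, Ciita and Nlrc5, fell, and Tapbp and Ctss rose. In 7 genes (RT1-Da, RT1-Bb, RT1-DOa, Ciita, RT1-S3, RT1-T24-3 and RT1-CE4) every female DK library lay below every female NK library, which held for 5.93% of all tested genes. No such share was computed for rises or for the other comparisons below.

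**Figure D1:**
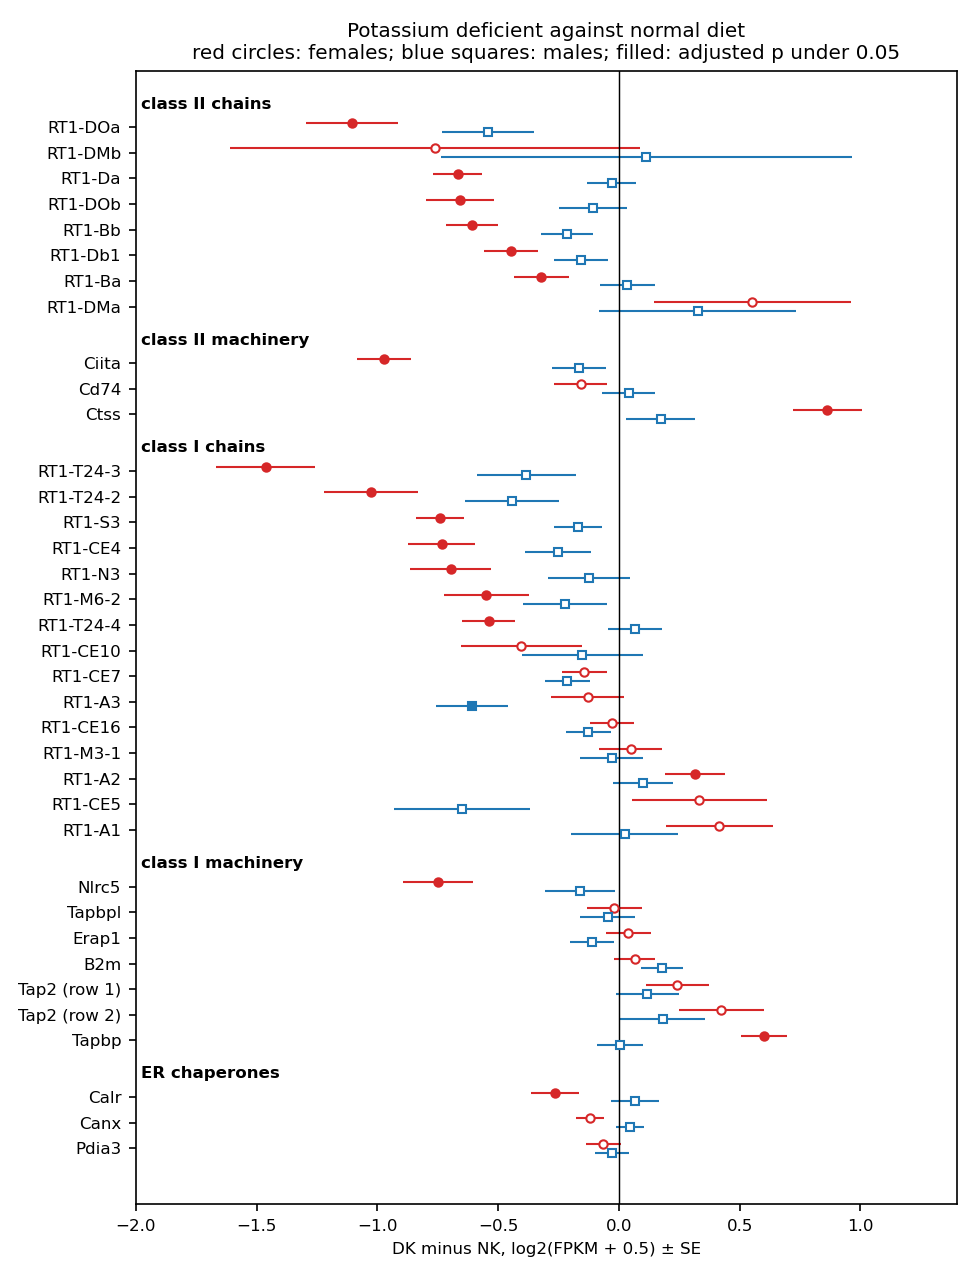
Differences of DK minus NK on the log2(FPKM + 0.5) scale with SE, by class, for females (red circles) and males (blue squares), filled where the adjusted p was under 0.05. Filled red circles of the class II and class I chains lie to the left, apart from RT1-A2, and those of Tapbp and Ctss to the right; the single filled blue square is RT1-A3.

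RT1-Da, the most abundant class II chain (chromosome 20, 4127644 to 4132616), was lower in every female DK library. Its lowest, median and highest values were 149, 161 and 219.8 FPKM in female NK and 88.9, 106 and 126 in female DK, a log2 difference of -0.67 (SE 0.10, adjusted p = 4.08e-06). The groups did not overlap, and the highest NK value belonged to replicate 2, the other 5 NK libraries lying between 149 and 166. RT1-Bb, the beta chain that pairs with RT1-Ba, went from 54.5, 62.4 and 74.0 to 34, 40.2 and 49.8 FPKM, a difference of -0.61 (SE 0.11, adjusted p = 3.47e-05), also without overlap. Its partner RT1-Ba changed less: 55.1, 59.9 and 76.9 FPKM in NK and 40.1, 49.5 and 61.8 in DK, a difference of -0.32 (SE 0.11, adjusted p = 0.0245) with overlapping groups. The call on RT1-Ba was lost with the number series in the model (adjusted p = 0.0984), in the 300s alone (adjusted p = 0.396), without the 2 female libraries that stood apart (adjusted p = 0.0504) and in 3 of 12 fits that each left out 1 library, namely female NK replicate 2 and female DK replicates 4 and 6 (at most 0.0751). RT1-Db1, the beta chain that pairs with RT1-Da, fell by 0.45 (SE 0.11, adjusted p = 0.00195), from 16.7 ± 1.59 to 12.3 ± 2.39 FPKM (SD, n = 6 each), and was not called in the 300s alone (-0.40, adjusted p = 0.0717).

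The DO chains, which restrain peptide exchange and are known mainly from B cells and some dendritic cells, also fell. RT1-DOa was at 2.22, 2.77 and 3.52 FPKM (lowest, median, highest) in female NK and 0.579, 0.997 and 1.62 in female DK, a difference of -1.10 (SE 0.19, adjusted p = 2.60e-05). RT1-DOb went from 2.99, 5.38 and 6.44 to 2.30, 2.93 and 4.69 FPKM, a difference of -0.66 (SE 0.14, adjusted p = 0.00042); female NK replicate 2, at 2.99 FPKM, was the only NK library within the DK range. RT1-DOa thus had the largest difference among the called class II chains, at a mean level of 2.54 FPKM over all libraries.

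Ciita, the coactivator of class II genes (chromosome 10, 5213350 to 5260608), fell by 0.97 on the log2 scale (SE 0.11, adjusted p = 4.24e-08). In FPKM its 6 values were 3.19, 3.85, 3.96, 3.97, 4.52 and 4.80 in female NK and 1.41, 1.60, 1.66, 1.76, 2.06 and 2.46 in female DK. The groups did not overlap. Female HK, with 3.32, 3.37, 3.74, 3.90 and 6.03, lay in the NK range apart from its highest library, replicate 1. Cd74, which Ciita is also known to switch on, was at 806, 912 and 1128 FPKM in NK and 662, 849 and 975 in DK, a difference of -0.16 (SE 0.11, adjusted p = 0.264) that was not called. Scaled to library sums, which lowers the median of all genes by 0.17 in this comparison, Cd74 was called lower (-0.34, adjusted p = 0.00407). Ctss, the protease that trims Cd74, rose by 0.86 (SE 0.14, adjusted p = 1.57e-05), from 33.7, 38.0 and 49.7 to 53.0, 67.3 and 97.8 FPKM without overlap.

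**Figure D2:**
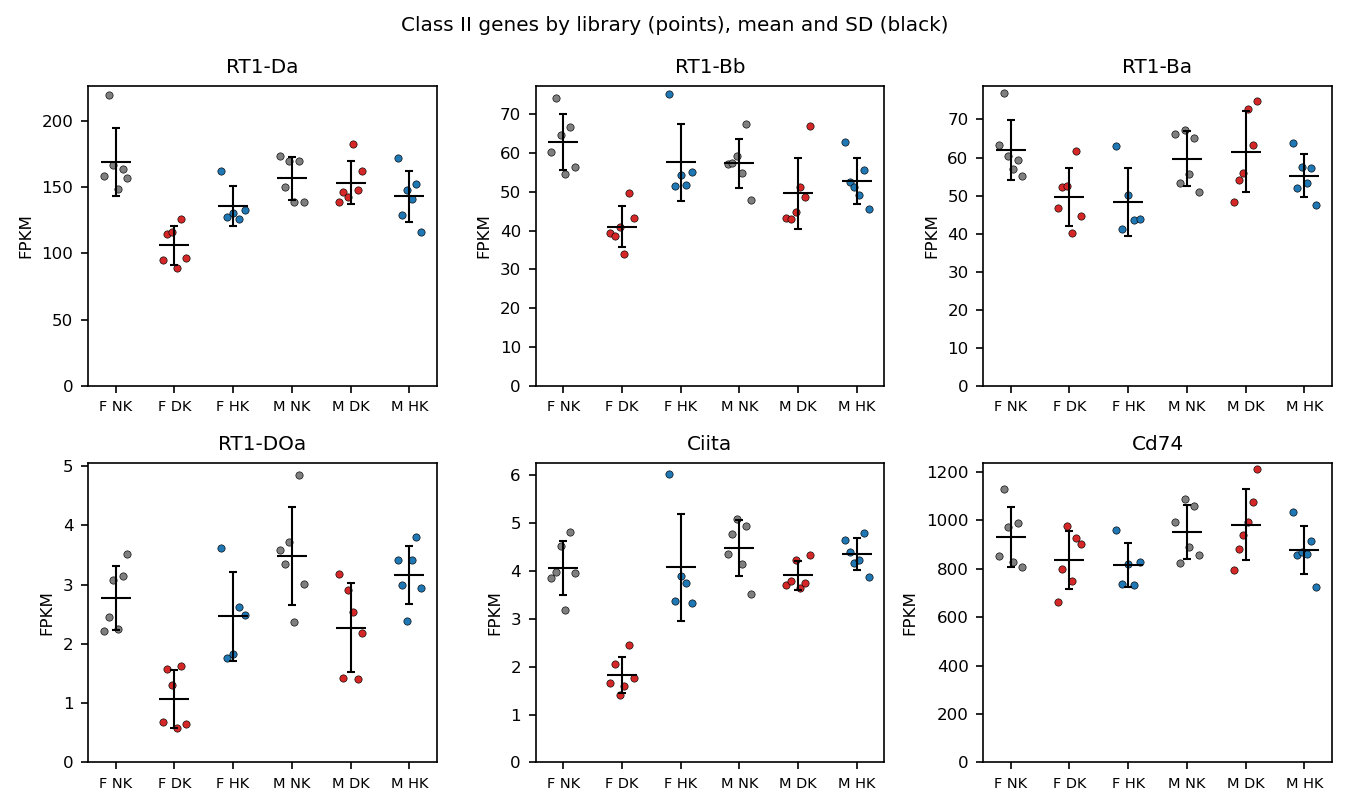
FPKM of 6 class II genes in each library, by sex (F, M) and diet, with mean and SD in black. The female DK points of RT1-Da, RT1-Bb, RT1-DOa and Ciita lie under all female NK points, while those of RT1-Ba and Cd74 overlap with NK.

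The ratio of 2 genes within a library does not depend on how libraries were scaled. RT1-Ba over RT1-Da was 0.450 to 0.492 in female DK, against 0.350 to 0.399 in female NK, 0.323 to 0.388 in female HK, 0.356 to 0.402 in male NK and 0.371 to 0.410 in male HK. Male DK spanned 0.349 to 0.461 and reached into the female DK range. The female DK libraries lay above all libraries of the NK and HK groups. Cd74 over RT1-Da was 6.95 to 9.37 in female DK, 5.13 to 6.05 in female NK and 5.80 to 6.28 in female HK, again with no overlap. In males it was 5.48 to 6.42 on NK, 5.44 to 7.46 on DK and 5.88 to 6.65 on HK, ranges that overlap. Ciita over RT1-Da was 0.0121 to 0.0196 in female DK and 0.0181 to 0.0294 in female NK, ranges that overlap. These ratios were chosen after the values had been seen and carry no test.

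**Figure D3:**
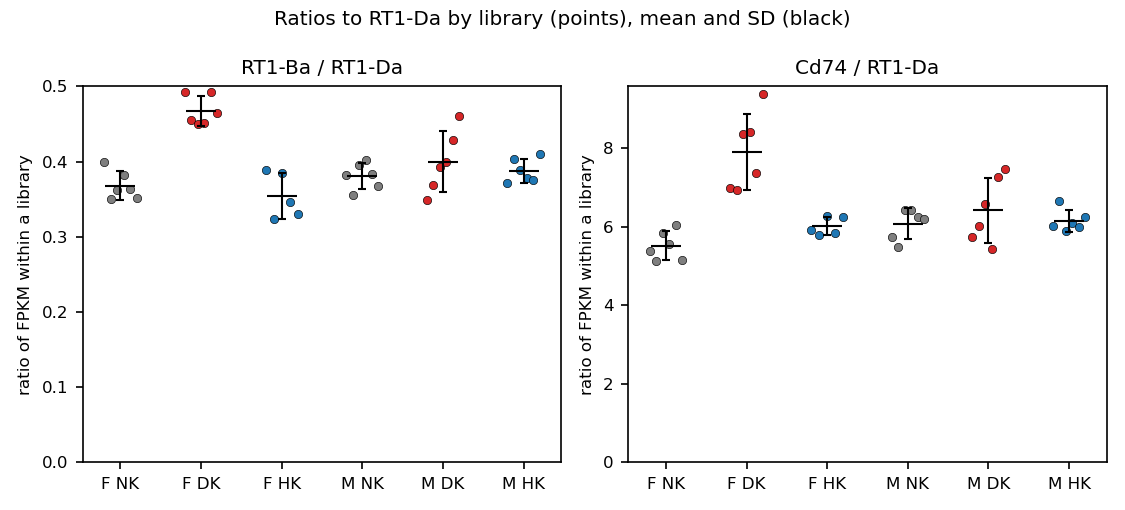
Ratios of FPKM within each library, RT1-Ba to RT1-Da (left) and Cd74 to RT1-Da (right), by sex and diet, with mean and SD in black. The 6 female DK libraries lie at 0.450 to 0.492 and 6.95 to 9.37, above all female NK and HK libraries.

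The chains of DM, the peptide exchanger, could not be read in the same way. RT1-DMb ran from 0.125 to 19.2 FPKM over the 35 libraries, a 154-fold span, and RT1-DMa from 0.344 to 14.1, a 40.9-fold span, with high and low libraries inside the same group. In female NK alone the 6 RT1-DMb values were 0.137, 0.435, 0.735, 6.94, 12.7 and 19.2. The differences in female DK against NK were -0.76 (SE 0.85, adjusted p = 0.502) and 0.55 (SE 0.41, adjusted p = 0.294) for RT1-DMb and RT1-DMa. Elsewhere on the chromosome the table holds a second row for each, LOC100909630, described as class II M beta 1 chain-like (0.110 to 16.5 FPKM), and LOC100909593, described as M alpha chain-like (0.220 to 4.02 FPKM). Neighbouring Brd2 has the same kind of scatter, at 0.235 to 5.28 FPKM. Reads of near-identical rows can be split between them by counting, so these values are uncertain; the part of such copies in the scatter was not tested.

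**Figure D4:**
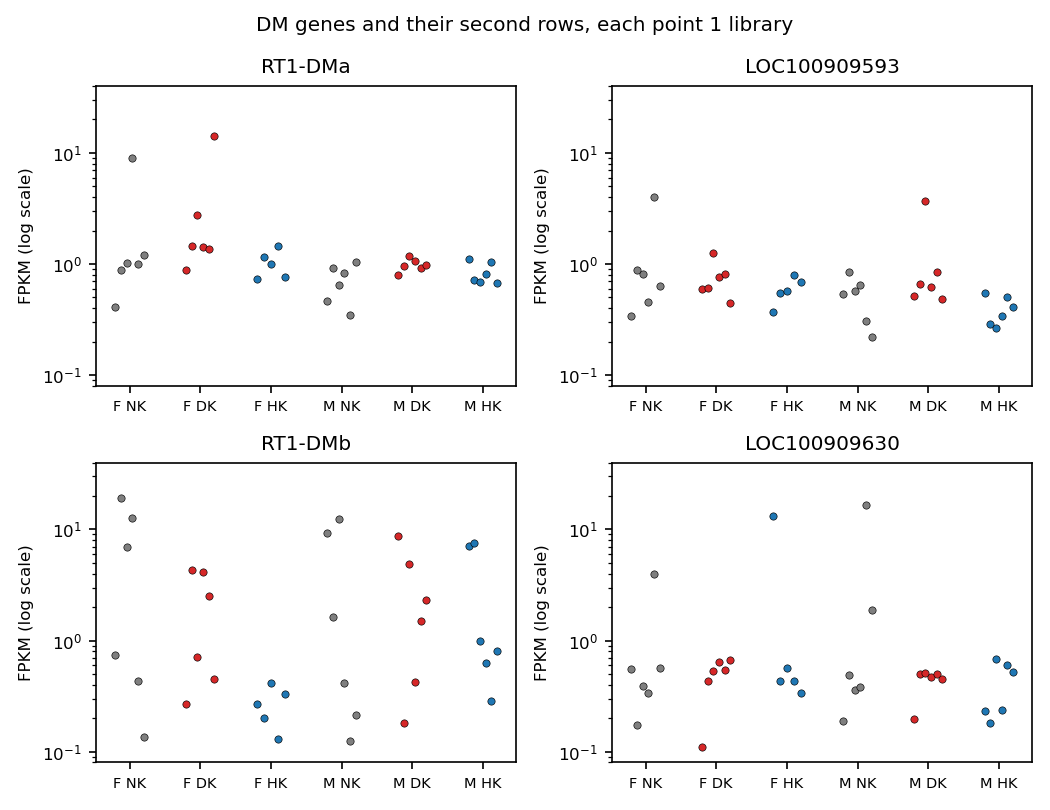
FPKM on a log axis in each library for RT1-DMa and RT1-DMb (left) and the second rows of the table described as like them (right). Single libraries of 1 group differ by more than 10-fold in RT1-DMb, from 0.137 to 19.2 FPKM in female NK.

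Among class I chains in females on DK, 7 fell, 1 rose and 7 were not called. RT1-S3, a nonclassical chain and the second most abundant (chromosome 20, 3176107 to 3179818), fell from 36.4, 50.0 and 64.8 FPKM (lowest, median, highest) to 26.1, 30.2 and 33.3, a difference of -0.74 (SE 0.10, adjusted p = 6.04e-07) without overlap. RT1-CE16, the most abundant, was at 65.2, 74.4 and 86.6 and 64.8, 72.2 and 85.7 FPKM, a difference of -0.03 (SE 0.09, adjusted p = 0.834). All 3 rows of the nonclassical T24 group that passed the filter fell. RT1-T24-3 had the largest difference of all 36 genes, -1.46 (SE 0.21, adjusted p = 1.22e-06), from 3.08, 4.96 and 8.54 to 0.979, 1.63 and 2.81 FPKM without overlap. RT1-T24-2 fell by 1.03 (SE 0.19, adjusted p = 9.43e-05), and its level never exceeded 95 reads in a library. RT1-T24-4 went from 20.2 ± 2.87 to 13.8 ± 2.53 FPKM (SD, n = 6 each), a difference of -0.54 (SE 0.11, adjusted p = 0.000255).

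Smaller class I rows fell as well. RT1-N3 went from 3.24, 6.02 and 7.77 to 1.97, 3.29 and 4.90 FPKM, a difference of -0.70 (SE 0.17, adjusted p = 0.00138). RT1-CE4 went from 1.3, 2.31 and 3.0 to 0.845, 1.18 and 1.29 FPKM without overlap, a difference of -0.73 (SE 0.14, adjusted p = 7.62e-05). RT1-M6-2, with at most 35 reads in any library, changed by -0.55 (SE 0.17, adjusted p = 0.0126). Against these stood RT1-A2, a classical class I chain, which rose by 0.32 (SE 0.13, adjusted p = 0.0458), from 11.1 ± 2.58 to 13.8 ± 2.13 FPKM (SD, n = 6 each). That call was lost in 7 of 12 fits that left out 1 library (female NK replicates 1, 3, 4 and 6 and female DK replicates 1, 3 and 6; at most 0.127), with library sums (0.14, adjusted p = 0.414) and with the number series in the model (adjusted p = 0.152). RT1-A1, which overlaps it, had 0.42 (SE 0.22, adjusted p = 0.138), and RT1-CE7, RT1-CE5, RT1-CE10, RT1-A3 and RT1-M3-1 were not called either.

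Among the class I machinery, Nlrc5, the class I coactivator, fell by 0.75 (SE 0.14, adjusted p = 0.000115). Its values were 0.530, 1.2, 1.24, 1.33, 1.42 and 1.44 FPKM in female NK and 0.312, 0.363, 0.539, 0.569, 0.576 and 0.594 in female DK, so that 1 NK library, replicate 2, lay inside the DK range. B2m, the shared light chain, was not called: 474, 499 and 671 FPKM in NK and 474, 540.1 and 606 in DK, a difference of 0.06 (SE 0.09, adjusted p = 0.577). Tapbp, which bridges the class I chain to the peptide pump, rose from 53.5, 55.0 and 66.2 to 74.7, 85.0 and 109.5 FPKM, a difference of 0.60 (SE 0.10, adjusted p = 8.04e-06) without overlap. Tap2 has 2 rows in the table, ENSRNOG00000046031 with a mean of 10.5 FPKM and ENSRNOG00000000455 with 4.10. They had 0.42 (SE 0.18, adjusted p = 0.0553) and 0.24 (SE 0.13, adjusted p = 0.144). Erap1, with 0.04 (SE 0.09), and Tapbpl, with -0.02 (SE 0.11), were not called. Of the ER chaperones, Calr fell by 0.27 (SE 0.10, adjusted p = 0.0325), from 417 ± 61.2 to 349 ± 63.0 FPKM, while Canx and Pdia3 were not called. The Calr call was lost in 6 of 12 fits that left out 1 library (female NK replicates 1 to 3 and female DK replicates 1, 2 and 4; at most 0.101) and in the 300s alone (-0.16, adjusted p = 0.425).

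**Figure D5:**
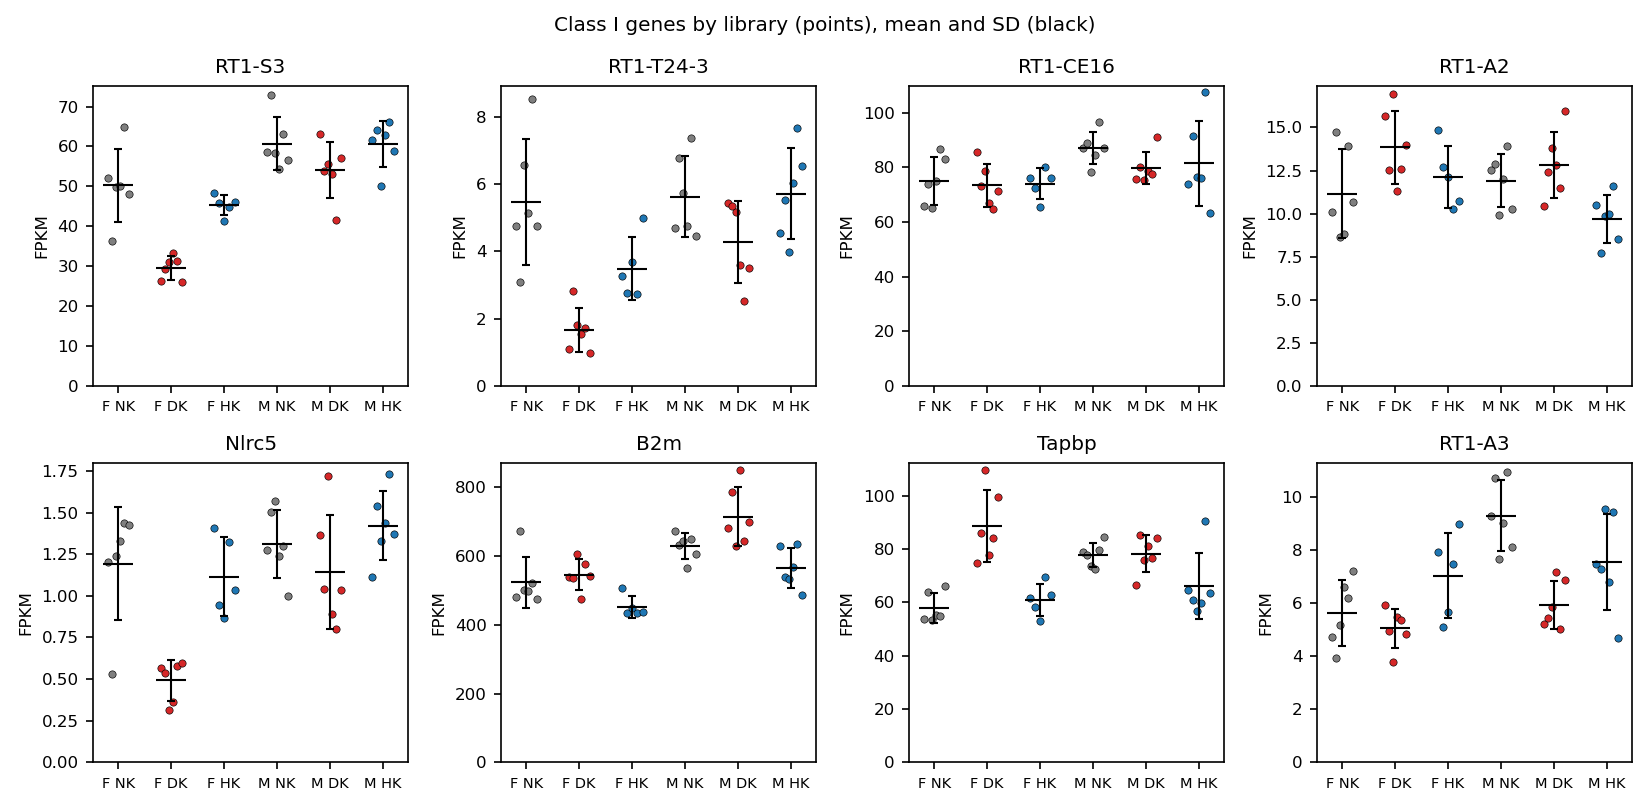
FPKM of 8 class I genes in each library, by sex (F, M) and diet, with mean and SD in black. Female DK points of RT1-S3 (26.1 to 33.3 FPKM) and RT1-T24-3 lie under those of female NK, those of Tapbp (74.7 to 109.5 FPKM) above them, and RT1-CE16 and B2m overlap.

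Within the libraries numbered in the 300s, which hold 6 female DK but only 2 female NK libraries, 16 of the 19 calls remained, and 16 of 19 with the number series in the model. RT1-Da was then lower by 0.53 and 0.61, Ciita by 0.82 and 0.92, RT1-S3 by 0.73 and 0.76, and Tapbp higher by 0.54 and 0.53. Those 4 genes were called in both fits.

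Female DK against female HK is a comparison held wholly within the 300s, and shares the DK libraries with the one above. Here 13 of the 36 genes fell and 4 rose, beside 17.8% and 18.6% of all tested genes. With library sums, which move the median of all genes to -0.21 here, the split was 19 lower and 2 higher. Among the called genes Ciita had the largest difference, -0.96 (SE 0.12, adjusted p = 1.72e-07), and every DK library lay under every HK library. RT1-DOa (-0.94, SE 0.20), RT1-Bb (-0.48, SE 0.11) and RT1-Da (-0.36, SE 0.11) fell without overlap. RT1-Da was at 126, 127, 130.4, 133 and 162 FPKM in the 5 HK libraries, and the single one above 133 was replicate 1. RT1-Ba was not called, with 0.04 (SE 0.12, adjusted p = 0.805), and had 49.7 FPKM in DK and 48.3 in HK. RT1-DOb and RT1-Db1 were not called either (0.0555 and 0.174 as adjusted p).

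Of the class I chains, RT1-S3 fell by 0.61 against HK (SE 0.10, adjusted p = 3.17e-05), its HK values being 41.4, 44.8, 45.8, 46.0 and 48.4 FPKM. RT1-T24-3 (-0.91, SE 0.22), RT1-CE4 (-0.72, SE 0.14), RT1-T24-2 (-0.69, SE 0.20) and RT1-M6-2 (-0.63, SE 0.18) fell too. RT1-A3 (-0.42, SE 0.16, adjusted p = 0.0339), RT1-T24-4 (-0.31, SE 0.12, adjusted p = 0.0387) and Calr (-0.27, SE 0.10, adjusted p = 0.038) were lower by calls that 5, 7 and 8 of 11 fits with 1 library left out did not keep. For RT1-A3 these left out female DK replicate 3 or 6 or HK replicate 1, 4 or 5 (adjusted p up to 0.113). For RT1-T24-4 they left out DK replicate 1, 2, 5 or 6 or HK replicate 1, 2 or 5 (up to 0.106), and for Calr DK replicate 1, 2, 4 or 5 or HK replicates 1 to 4 (up to 0.101). Nlrc5 fell by 0.70 (SE 0.15, adjusted p = 0.000537). Tapbp (0.53, SE 0.10) and Ctss (0.89, SE 0.15) rose without overlap. B2m rose by 0.27 (adjusted p = 0.0183), from 452 ± 32.0 FPKM in HK (SD, n = 5) to 546 ± 44.6 in DK, and lost its call with library sums (0.04, adjusted p = 0.708). The smaller Tap2 row rose by 0.38 (adjusted p = 0.0295), a call also lost with library sums (0.17, adjusted p = 0.309) and without female DK replicate 2 or 6 or HK replicate 3 (up to 0.0872).

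The same diet gave 1 call in males. Against male NK, RT1-A3 fell in male DK and no gene of the 36 rose, beside 1.85% and 2.92% of all tested genes. RT1-A3, a classical class I row that overlaps RT1-CE16, was at 7.65, 8.10, 9.03, 9.30, 10.7 and 10.9 FPKM in NK and 5.04, 5.20, 5.42, 5.85, 6.86 and 7.17 in DK, a difference of -0.61 (SE 0.15, adjusted p = 0.0162) without overlap. The call was lost with the number series in the model (-0.30, adjusted p = 0.617) and in the 300s alone (-0.40, adjusted p = 0.577), where male DK has 1 library, which is assumed to vary like the other groups. Since 5 of the 6 male DK libraries and none of the male NK and HK ones are in the 200s, the number series and the diet can hardly be told apart in males. With library sums 4 genes were called lower in male DK: RT1-A3, RT1-CE7, RT1-DOa and RT1-Bb. That scaling moves the median of all genes to -0.13 here, and 1283 of the 14264 tested genes were then called.

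No class II gene was called in male DK against NK. RT1-Da was at 139, 159.7 and 173 FPKM (lowest, median, highest) in male NK and 139, 147 and 182 in male DK, a difference of -0.03 (SE 0.10, adjusted p = 0.903). Ciita was at 3.52, 4.56 and 5.09 and 3.64, 3.77 and 4.34 FPKM, a difference of -0.17 (SE 0.11, adjusted p = 0.427). RT1-Bb had -0.22 (SE 0.11, adjusted p = 0.249) and RT1-DOa -0.54 (SE 0.19, adjusted p = 0.0903). Cd74 was at 822, 941 and 1089 and 796, 965 and 1211 FPKM (0.04, SE 0.11). These ranges overlapped in each case.

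For class I in males, RT1-S3 was at 54.3, 58.6 and 72.8 FPKM in NK and 41.5, 54.8 and 63.1 in DK (-0.17, SE 0.10, adjusted p = 0.35), and Nlrc5 at 0.999, 1.28 and 1.57 and 0.803, 1.04 and 1.72 (-0.16, SE 0.14, adjusted p = 0.578). Tapbp had 0.00 (SE 0.10, adjusted p = 0.987) and B2m 0.18 (SE 0.09, adjusted p = 0.231). Against male HK, male DK had 1 gene lower, RT1-T24-2 (-0.69, SE 0.19, adjusted p = 0.0398), and 1 higher, B2m (0.33, SE 0.09, adjusted p = 0.0228), beside 1.62% and 2.7% of all tested genes. With library sums the split was 1 lower and 0 higher. RT1-T24-2 went from 3.24, 4.31 and 7.01 FPKM in HK to 1.95, 2.66 and 3.28 in DK, and B2m from 487, 554 and 634 to 629.6, 689 and 850.1; both pairs of groups overlapped. Both calls were lost with the number series in the model (-0.71, adjusted p = 0.245 and 0.25, adjusted p = 0.384) and when 1 of several libraries was left out: male DK replicates 3 to 6 and HK replicates 1, 5 and 6 for RT1-T24-2 (adjusted p up to 0.108), and male DK replicates 2 and 4 and HK replicates 3 and 6 for B2m (up to 0.0854).

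High potassium gave no call in either sex. In female HK against NK, limma called 0 of the 36 genes and 0% of all tested genes higher or lower, and voom called 0 as well. In limma, 6 of the 36 had an unadjusted p under 0.05, beside 381 of all 14264 tested genes. In male HK against NK the count was 0, with 0% of all genes higher and 0% lower, and 0 with voom. There 4 of the 36 had an unadjusted p under 0.05 in limma, beside 1076 of all 14264 tested genes. All 8 class II chains, the uncertain DM rows included, had negative differences in female HK, beside 7304 of all 14264 tested genes. Among the 8 were RT1-Da (-0.31, SE 0.11) and RT1-Ba (-0.36, SE 0.12), and none of the 8 was called. Ciita had -0.01 (SE 0.12) in female and -0.03 (SE 0.11) in male HK, and B2m -0.21 (SE 0.09) and -0.16 (SE 0.09).

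Whether females and males differed in their response to DK was tested by the difference of the 2 differences, male minus female. For DK against NK it was called higher in 5 genes and lower in 2, beside 4.82% and 5.14% of all tested genes, and with library sums in 6 and 1, with Calr added and Ctss lost. It was positive for Ciita (0.81, SE 0.16, adjusted p = 0.000938), RT1-Da (0.64, SE 0.14, adjusted p = 0.00353), RT1-S3 (0.57, SE 0.14, adjusted p = 0.00761), RT1-T24-4 (0.61, SE 0.16, adjusted p = 0.011) and RT1-T24-3 (1.08, SE 0.29, adjusted p = 0.0143), which fell in females. It was negative for Tapbp (-0.60, SE 0.13, adjusted p = 0.00372) and Ctss (-0.69, SE 0.20, adjusted p = 0.0252), which rose in females; the Ctss call was lost without male NK replicate 2 (adjusted p = 0.0508), with library sums (-0.64, adjusted p = 0.0761) and with voom (-0.64, adjusted p = 0.0746). With the number series in the model, or in the 300s alone, 0 of these 7 were called. The estimates then were 0.68 and 0.79 for Ciita and 0.51 and 0.59 for RT1-Da, with adjusted p of 0.336, 0.38, 0.466 and 0.43. For DK against HK the sex difference was called in Ciita alone, 0.82 (SE 0.16, adjusted p = 0.00147), with 1 gene higher and 0 lower beside 2.38% and 3.06% of all tested genes. It was still called with the number series in the model and not in the 300s alone (0.96, adjusted p = 0.129).

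Males and females also differed at a given diet. On NK, 8 genes were higher in males and 1 lower, beside 9.81% and 11.2% of all tested genes. With library sums, which move the median of all genes to 0.13 here, 9 were higher and 0 lower. Tapbpl, the tapasin relative, was at 8.72, 9.35 and 11.5 FPKM in female and 12.5, 15.3 and 16.2 in male NK (0.59, SE 0.11, adjusted p = 0.000333), without overlap. RT1-A3 (0.69, SE 0.15), Tapbp (0.43, SE 0.10) and Erap1 (0.37, SE 0.09) were also higher in males without overlap, and Ctss (0.50, SE 0.14), RT1-M3-1 (0.40, SE 0.13), RT1-S3 (0.28, SE 0.10) and B2m (0.27, SE 0.09) with overlap. RT1-T24-4 was lower in males (-0.32, SE 0.11, adjusted p = 0.0378). Of 12 fits that each left out 1 library, 8 lost the call on RT1-S3 (female replicates 2, 3, 4 and 6 and male replicates 1, 2, 3 and 5; adjusted p up to 0.154) and 7 that on RT1-T24-4 (female replicates 3 to 5 and male replicates 1, 2, 4 and 6; up to 0.11). That on RT1-M3-1 was lost in 5 (female replicates 1 and 3 and male replicates 2, 3 and 5; up to 0.0929) and that on B2m in 3 (female replicates 1 and 6 and male replicate 1; up to 0.0556). With the number series in the model 3 of the 9 calls remained, Erap1, B2m and Tapbpl, and in the 300s alone 1 did, B2m. No class II chain was called between the sexes on NK.

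On DK, 14 genes were higher in males and 0 lower, beside 16.1% and 18.3% of all tested genes. They included 4 class II chains, RT1-Da (0.53, SE 0.10), RT1-Ba (0.30, SE 0.11), RT1-DOa (0.83, SE 0.19) and RT1-DOb (0.55, SE 0.14), and Ciita (0.94, SE 0.11, adjusted p = 1.29e-07). Class I chains were higher in 6 of 15 cases, led by RT1-T24-3 (1.15, SE 0.21) and RT1-S3 (0.86, SE 0.10, adjusted p = 7.31e-08), and Nlrc5 (0.71, SE 0.14), Tapbpl (0.56, SE 0.11) and B2m (0.38, SE 0.09) were higher too. Male DK lay above female DK without overlap in Ciita, RT1-Da, RT1-S3, RT1-CE4, Nlrc5, B2m and Tapbpl. The share of all tested genes with such a gap was not computed. Library sums move the median of all genes to 0.17 in this comparison, and 5808 of the 14264 tested genes were then called. With library sums 23 genes were higher; with the number series in the model 9 were, without RT1-N3, RT1-T24-4, RT1-T24-2, B2m and RT1-Ba, and in the 300s alone 3 were (Ciita, RT1-S3 and RT1-Bb). Leaving out 1 library lost RT1-T24-4 in 9 of 12 fits (every library but male replicate 5 and female replicates 3 and 4; adjusted p up to 0.127), RT1-Ba in 6 (male replicates 4 to 6 and female replicates 1, 4 and 6; up to 0.11) and RT1-N3 in 1 (female replicate 6, 0.0527).

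On HK, 4 genes were higher in males and 0 lower, beside 4.02% and 5.9% of all tested genes: RT1-S3 (0.41, SE 0.10), RT1-T24-2 (0.68, SE 0.20), B2m (0.32, SE 0.09) and Tapbpl (0.39, SE 0.12). Of 11 fits without 1 library, 6 lost RT1-T24-2 (male replicates 1, 5 and 6 and female replicates 1, 3 and 5; adjusted p up to 0.0892), 5 Tapbpl (male replicates 1 and 5 and female replicates 2, 3 and 5; up to 0.113) and 4 B2m (male replicates 1 and 5 and female replicates 2 and 5; up to 0.0567). RT1-S3, B2m and Tapbpl were called higher in males on each of the 3 diets. With the number series in the model, RT1-S3 was not called on NK and B2m was not called on DK. In the 300s alone, RT1-S3 and Tapbpl were not called on NK, and Tapbpl was not called on HK. On DK the 300s hold 1 male library, and B2m and Tapbpl were not called there.

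The chains that passed were also summed by class, as values with no test. Class II chains, the uncertain DM rows included, summed to 296 to 416 FPKM in female NK, 184 to 259 in female DK and 239 to 328 in female HK. In males the sums were 259 to 335 on NK, 260.5 to 334 on DK and 231 to 333 on HK. The female DK libraries thus lay below all female NK libraries and overlapped with HK. Class I chains summed to 194 to 257, 166 to 200.1 and 179 to 215 FPKM in females and 226 to 268, 191 to 247 and 201 to 277 in males on NK, DK and HK, with overlap between diets in each sex. The ratio of class I to class II sums was 0.659 ± 0.117 (SD, n = 6) in female NK and 0.828 ± 0.0999 in female DK, and between 0.765 and 0.835 on average in the other 4 groups. Female NK replicate 2 had the lowest ratio, 0.469.

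Other genes of antigen processing were read from a list of 44 names, of which 43 had a row and 37 were tested. In female DK against NK, 9 rose and 9 fell, with a median of 0.01, beside 19.7% and 19.5% of all tested genes. Jak2, the kinase behind the interferon gamma receptor, fell from 26.9 ± 5.23 to 10.9 ± 1.54 FPKM (-1.25, SE 0.10, adjusted p = 4.14e-11). Hspa5, the ER chaperone BiP, fell from 347 ± 80.6 to 169 ± 32.5 FPKM (-1.03, SE 0.16, adjusted p = 5.45e-06), and Cd40, a costimulatory receptor of antigen presenting cells, had -0.89 (SE 0.17, adjusted p = 0.000147). Ctsd, a lysosomal protease, rose from 439 ± 75.0 to 820.0 ± 224 FPKM (0.87, SE 0.19, adjusted p = 0.000387). In males 1 of the 37 rose, the endosomal protease Lgmn (0.42, SE 0.13, adjusted p = 0.0456), and 0 fell, beside 2.92% and 1.85% of all tested genes. Chosen after their values were seen, Tap1, the partner of Tap2, had 0.18 (SE 0.13, adjusted p = 0.281) in females, the X box factor Rfx5 0.01 (SE 0.09, adjusted p = 0.952), its partner Rfxank 0.35 (SE 0.12, adjusted p = 0.0211) and the immunoproteasome subunit Psmb8 0.69 (SE 0.18, adjusted p = 0.00228).

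Genes known to be induced by interferon, 30 names with 25 tested, fell in 19 cases and rose in 4 in female DK against NK, beside 19.5% and 19.7% of all tested genes, with a median of -0.68. The antiviral GTPase Mx1 went from 4.95 ± 1.66 to 0.977 ± 0.429 FPKM (-1.86, SE 0.21, adjusted p = 4.19e-08), Mx2 had -1.62 (SE 0.20, adjusted p = 2.03e-07) and the transcription factor Irf7 -1.55 (SE 0.20, adjusted p = 2.02e-07). The chemokine Cxcl11 rose, from 10.6 ± 2.60 to 30.5 ± 9.78 FPKM (1.45, SE 0.21, adjusted p = 1.86e-06). In male DK against NK 1 of the 25 rose, Cxcl11 (0.94, SE 0.21, adjusted p = 0.00819), and 1 fell, Rsad2 (-0.64, SE 0.15, adjusted p = 0.0113), beside 2.92% and 1.85%.

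Markers of the cells that carry class II were measured beside these genes. The counts of called markers below stand beside 19.5% of all tested genes that fell and 19.7% that rose in female DK against NK, and 1.85% and 2.92% in males. In bulk tissue, fewer cells of a type and less RNA per cell cannot be told apart. Ptprc, present on all leukocytes, went from 6.0 ± 1.15 FPKM in female NK to 2.60 ± 0.794 in female DK (-1.09, SE 0.15, adjusted p = 1.20e-06) and had -0.39 (SE 0.15, adjusted p = 0.135) in males. Of 8 dendritic cell markers tested out of 11, 4 fell in female DK and 0 rose: Itgax (-0.74, SE 0.14), Flt3 (-0.65, SE 0.14), Clec9a (-0.63, SE 0.18) and Zbtb46 (-0.54, SE 0.13). Their 11 markers summed to 30.5 to 40.1 FPKM in female NK and 27.2 to 37.1 in female DK, and to 43.7 to 54.4 and 37.9 to 45.9 in male NK and DK, where Flt3 alone fell (-0.64, SE 0.14, adjusted p = 0.00908). Of 14 macrophage markers tested out of 15, 5 rose and 4 fell in female DK. Cd14 (1.2, SE 0.16), Mrc1 (1.03, SE 0.21) and C1qb (0.96, SE 0.19) rose and Adgre1 (-0.88, SE 0.13) fell, and the 15 summed to 387 to 563 FPKM in female NK and 479 to 805 in female DK. Lyz2, which was not called, held much of these sums, at 277 FPKM on average in female NK and 310 in female DK. In males limma called 0 of the 14, and the sums were 526 to 887 and 518 to 793 FPKM. Of the 14, 4 had an unadjusted limma p under 0.05 in males, beside 2932 of all 14264 tested genes.

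T and NK cell markers, 10 tested of 12 names, fell in 9 cases and rose in 0 in female DK against NK, among them Il2rb (-0.90, SE 0.13), Cd3g (-0.76, SE 0.26) and Cd8a (-0.75, SE 0.20); the sum of the 11 in the table was 33.4 to 47.4 FPKM in NK and 21.1 to 29.8 in DK, without overlap. Much of this sum was Cd4, which averaged 20.7 FPKM in female NK and 13.7 in female DK, where the median sums were 42.1 and 23.7. In males limma called 0 of 10, with sums of 47.7 to 70.6 and 43.8 to 58.5 FPKM. At an unadjusted limma p under 0.05 there were 0 of the 10, beside 2932 of all 14264 tested genes. B cell markers were near the limit of detection, the 6 together at 0.417 to 1.23 FPKM in female NK and 0.846 to 4.76 in female DK, and 1 of them was tested (Cd79b, 0.67 (SE 0.29, adjusted p = 0.0682)). Endothelial markers fell in 3 of 5 tested cases and rose in 0 (sums of 82.0 to 113 and 62.7 to 109 FPKM), and the 2 blood markers of the table summed to 15.2 to 241 and 12.5 to 71.6 FPKM. No marker of these lists was at 0 in every library. The part of cell numbers in the differences of the RT1 genes, Ciita and Nlrc5 was not tested.

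Position on the chromosome was described with the other protein coding rows between the first and the last RT1 gene. There were 173 of these, 88 of them tested, and in female DK against NK 23 rose and 8 fell, beside 19.7% and 19.5% of all tested genes. Their median was 0.11 against -0.01 over all tested genes. The counts and the median of these rows were not computed with library sums, which lower the median of all genes by 0.17. The largest differences were those of Mt1m (1.12, SE 0.32), Rnf39 (1.03, SE 0.16), Ddah2 (0.94, SE 0.14) and Ddr1 (0.90, SE 0.09), all higher on DK. In males 1 of the 88 rose and 0 fell, beside 2.92% and 1.85%.

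Libraries differed more in some of the 36 genes than in others. In 21 of them the highest of all 35 libraries was less than 3 times the lowest, among them Cd74, B2m and RT1-CE16. In 4 it was more than 10 times the lowest: RT1-DMb, RT1-DMa, RT1-T24-2 and RT1-CE5. RT1-CE5 ranged from 0.181 to 2.05 FPKM, which is at most 65 reads, and its differences of 0.33 (SE 0.28, adjusted p = 0.363) in females and -0.65 (SE 0.28, adjusted p = 0.179) in males were not called.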

How the data were processed

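Polyadenylated RNA of rat kidney cortex was sequenced in 35 libraries of 6 groups. The authors deposited 1 table of FPKM per gene and library. The tools named, per the submitters' processing notes, are featureCounts 1.5.0-p3, StringTie 1.3.3b, HISAT2 2.0.5 and fastp. The roles of these tools, the genome build and whether counting used strand are not given in the sources used here. Multiplied by gene length, 100% of the deposited FPKM values above 0 were whole reads (within 0.01 read) up to 1 factor per library, so the FPKM include the authors' scaling between libraries.

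Members and lists were chosen with earlier results of these data known. Genes with at least 1 FPKM in at least 5 libraries, 14264 of 32545, were tested as log2(FPKM + 0.5) with limma 3.58.1 in R 4.3.3. One fit of 6 group means with a mean-dependent prior (29 residual degrees of freedom) gave 11 contrasts, adjusted by Benjamini-Hochberg over all tested genes and called under 0.05. All 36 members may be named. Of each other list, up to 4 called genes with the largest absolute difference are named. The pipeline was tested on simulated data. No 2 libraries were copies: the lowest chi-square per gene was 9.26 within and 12.1 between groups.

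Alternatives were a pseudocount of 0.1, no filter, median-ratio scaling, library sums, limma's voom on the recovered reads, the number series as a term, a replicate block, the 300s alone, and each library left out. Leaving out female NK replicate 2 and female HK replicate 1 together was added after seeing the data. Promoters came from RefSeq, assembly GRCr8, matched by symbol. The deposited coordinates are of an unnamed build and were not mixed with these. Figures were drawn with matplotlib 3.10.9.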

Additional observations from a re-analysis of the deposited data

Results flagged for a closer look

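Single libraries stood apart from the rest of their group in 29 of 216 tests of a gene in a group (Dixon's test at the 95% level, for which chance gives about 1 in 20). Female NK replicate 2 was high in B2m (671 FPKM, the others 474 to 522), RT1-Da (219.8, others 149 to 166), RT1-Ba (76.9, others 55.1 to 63.2) and the smaller Tap2 row (6.02, others 3.66 to 4.07), and low in Nlrc5 (0.530, others 1.2 to 1.44) and RT1-DOb (2.99, others 5.32 to 6.44). Female HK replicate 1 was high in RT1-Da (162, others 126 to 133), RT1-Bb (75.2, others 51.5 to 55.0), RT1-Db1 (17.9, others 12.7 to 13.6), Ciita (6.03, others 3.32 to 3.90), B2m (508, others 433 to 449), RT1-CE4 (3.06, others 1.80 to 2.11), RT1-CE5 (2.05, others 0.306 to 0.483) and RT1-M6-2 (1.94, others 1.11 to 1.33).

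Male DK replicate 6 was high in the larger Tap2 row (17.9 FPKM, others 8.70 to 12.1), RT1-Bb (66.9, others 43.0 to 51.2) and RT1-CE16 (91.0, others 75.4 to 80.1). Male HK replicate 5 was high in Tapbp (90.6, others 56.7 to 64.5), the smaller Tap2 row (4.16, others 2.77 to 3.15) and RT1-M3-1 (9.65, others 4.99 to 6.12). RT1-CE10 had 1 high library in each of 3 groups: female DK replicate 3 (4.24, others 1.08 to 1.81), female HK replicate 2 (4.20, others 1.08 to 1.87) and male DK replicate 4 (5.31, others 1.61 to 2.93). RT1-DMa was high in female NK replicate 4 (8.91, others 0.414 to 1.21) and female DK replicate 6 (14.1, others 0.889 to 2.75). The remaining single libraries were female DK replicate 2 for RT1-DOb (4.69, others 2.30 to 3.10), female HK replicate 4 for RT1-M3-1 (5.92, others 4.91 to 5.12), male NK replicate 6 for RT1-T24-4 (13.3, others 16.1 to 17.4) and male HK replicate 6 for Calr (271, others 352 to 389).

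The response to DK differed between the sexes, as male minus female log2 differences with limma's adjusted p, in 7 genes against NK: Ciita (0.81), RT1-Da (0.64), RT1-S3 (0.57), RT1-T24-4 (0.61), RT1-T24-3 (1.08), Tapbp (-0.60) and Ctss (-0.69). Against HK it differed in Ciita (0.82). With the number series in the model, 0 of the 7 calls against NK remained, while that on Ciita against HK did.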

How the results depend on the processing

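In females on DK the count of called genes against NK was 19 and ranged from 17 to 20 when 1 library was left out, and against HK it was 17 (14 to 17). With library sums these were 22 and 21, with voom also 22 and 21, and in the 300s alone 16 and 18. Apart from HK against NK, with 0 calls, each other count moved by over 1.5 times under some setting. For male DK against NK (1 gene) there were 4 calls with library sums, 4 with voom, 0 with the number series as a covariate, 0 in the 300s alone and 1 to 2 with 1 library left out. For male DK against HK (2 genes) there was 1 without the filter, 1 with library sums, 1 with voom, 0 with the number series, 0 in the 300s, 5 without the 2 female libraries that stood apart and 0 to 5 with 1 library left out. The sex difference in DK against NK (7 genes) gave 0 with the number series, 0 in the 300s, 11 without the 2 female libraries and 6 to 11 with 1 library left out; that in DK against HK (1 gene) gave 5 with library sums, 5 with voom, 0 in the 300s, 2 without the 2 libraries and 1 to 3 with 1 left out. Male against female gave on NK (9 genes) 3 with the number series, 1 in the 300s and 6 to 10 with 1 library left out. On DK (14 genes) it gave 23 with library sums, 23 with voom, 9 with the number series, 3 in the 300s and 11 to 17, and on HK (4 genes) 1 to 5. The cause of these changes was not tested; the 300s alone hold fewer samples. No call changed sign. Of 74 single calls, the pseudocount kept 73, no filter 65, median-ratio scaling 74, library sums 68, voom 68, the number series 50, the 300s 38 and the 2 libraries left out 67, and 54 were kept in every fit with 1 library left out. Female DK against HK lies wholly in the 300s, while 5 of 6 male DK libraries are in the 200s, which limits the male and sex comparisons. RT1-M6-2, RT1-CE5 and RT1-T24-2 rest on at most 35, 65 and 95 reads.

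Replicate numbers did not pair the libraries: deviations from the group means of same-numbered libraries correlated at -0.273 to 0.213 (85 pairs, median 0.000307), other pairs at -0.262 to 0.282. With the replicate block, 18 genes were called in female DK against NK and 15 against HK, 3 in male DK against HK, 8 for males against females on NK and 5 on HK, and 70 of the 74 single calls were kept.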
